A study of Physcomitrium patens with 12 samples.

Results

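In the moss Physcomitrium patens, 60 of the 32926 genes counted were followed because their transcripts were scarce in antheridia of the PpPINC mutant line pinC#29, against wild type antheridia, while archegonia of the mutant kept levels near those of wild type. The genes were chosen on these libraries. Levels were CPM, the count of a gene divided by the library total and scaled to a common depth. A gene had to reach at least 2 CPM in every wild type antheridium library. Its mean in wild type antheridia had to lie within 8-fold of that in wild type archegonia, and its mean in mutant archegonia within 2-fold of that in wild type archegonia, each after adding 1 CPM. Of the 15777 genes that met these limits, the 60 with the widest gap between the highest mutant antheridium library and the lowest wild type antheridium library, as a ratio after adding 1 CPM to each, were taken. That the 60 are low in mutant antheridia, and within these fold limits in archegonia, is therefore how they were found and not a result. The values below describe how far, in which libraries and in which other respects they differ.

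Antheridia are the male organs of mosses, in which a jacket of sterile cells surrounds the cells that become swimming sperm, and archegonia are the female organs, each of which encloses an egg. PIN proteins are membrane carriers that move the hormone auxin out of plant cells, and in mosses auxin acts in the development of the sexual organs. The title of the series places the studied protein in sperm formation and in the abortion of sporophytes. Of the identifiers used by the authors, 0 matched those of RefSeq genes, so the 60 genes are given by identifier, no function is stated for any of them, and no sequence is shown.

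Groups of 3 libraries each were used: mutant antheridia, wild type antheridia, mutant archegonia and wild type archegonia. All plants were of the strain Gransden, induced to form sporophytes, with organs picked on day 18, and each library was made from 8 organs of a single kind. Every mutant library comes from pinC#29, so that the mutation and other properties of this line cannot be told apart. Collections were made on 3 occasions, and which libraries share an occasion is not stated. By their titles the 3 libraries of a group are biological replicates, and whether they came from separate cultures is not stated, so p-values measure only the spread between these libraries, part of which may be technical.

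Library totals lay between 19038033 and 39833129 counts. The number of genes with a count was 19088 in mutant antheridia 2, 20359 in mutant antheridia 3, 19803 in mutant archegonia 3, and between 21654 and 24802 in the other libraries. At Pp3c10_24880, held to be the PpPINC locus from knowledge of the literature and not from the files, mutant archegonia had 3, 2 and 0 counts and wild type archegonia 94, 38 and 56. No count was found there in mutant antheridia 2 and 3, but the library labelled mutant antheridia 1 had 66, the same as wild type antheridia 1, where wild type antheridia 2 and 3 had 39 and 165. As far as the candidate is right, that library goes against its label, and group results are given with and without it where it moved them. In organs taken whole, fewer cells of a type and less RNA per cell cannot be told apart.

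Across the 60 genes the median level was 1.79, 0 and 0.0502 CPM in mutant antheridia 1, 2 and 3, against 12.8, 8.33 and 9.12 CPM in wild type antheridia. Median levels in archegonia were 8.09, 5.35 and 8.99 CPM in the mutant and 7.61, 9.995 and 5.61 CPM in wild type. The 3 mutant antheridium libraries were thus below the other 9 in this median, and the library labelled mutant antheridia 1 was the highest of the 3. Among the 15777 genes within the limits, the medians were far closer, at 27.2, 21.7 and 24.2 CPM in mutant antheridia, against 29.3, 28.6 and 26.0 CPM in wild type antheridia. Summed over the 60 genes, the level was 453, 214 and 188 CPM in mutant antheridia, against 2712, 1654 and 1711 CPM in wild type antheridia. As a percentage of its own mean in wild type antheridia, a gene's level in mutant antheridia had a median of 8.04% and a highest value of 31.9%, or 2.42% and 31.0% without the library labelled mutant antheridia 1. By the way they were chosen, all 60 genes were lower in each mutant antheridium library than in every wild type antheridium library. Such a gap without overlap was also seen in 9.22% of the 15777 genes, and the opposite gap, with every mutant library higher, in 2.95%.

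**Figure D1:**
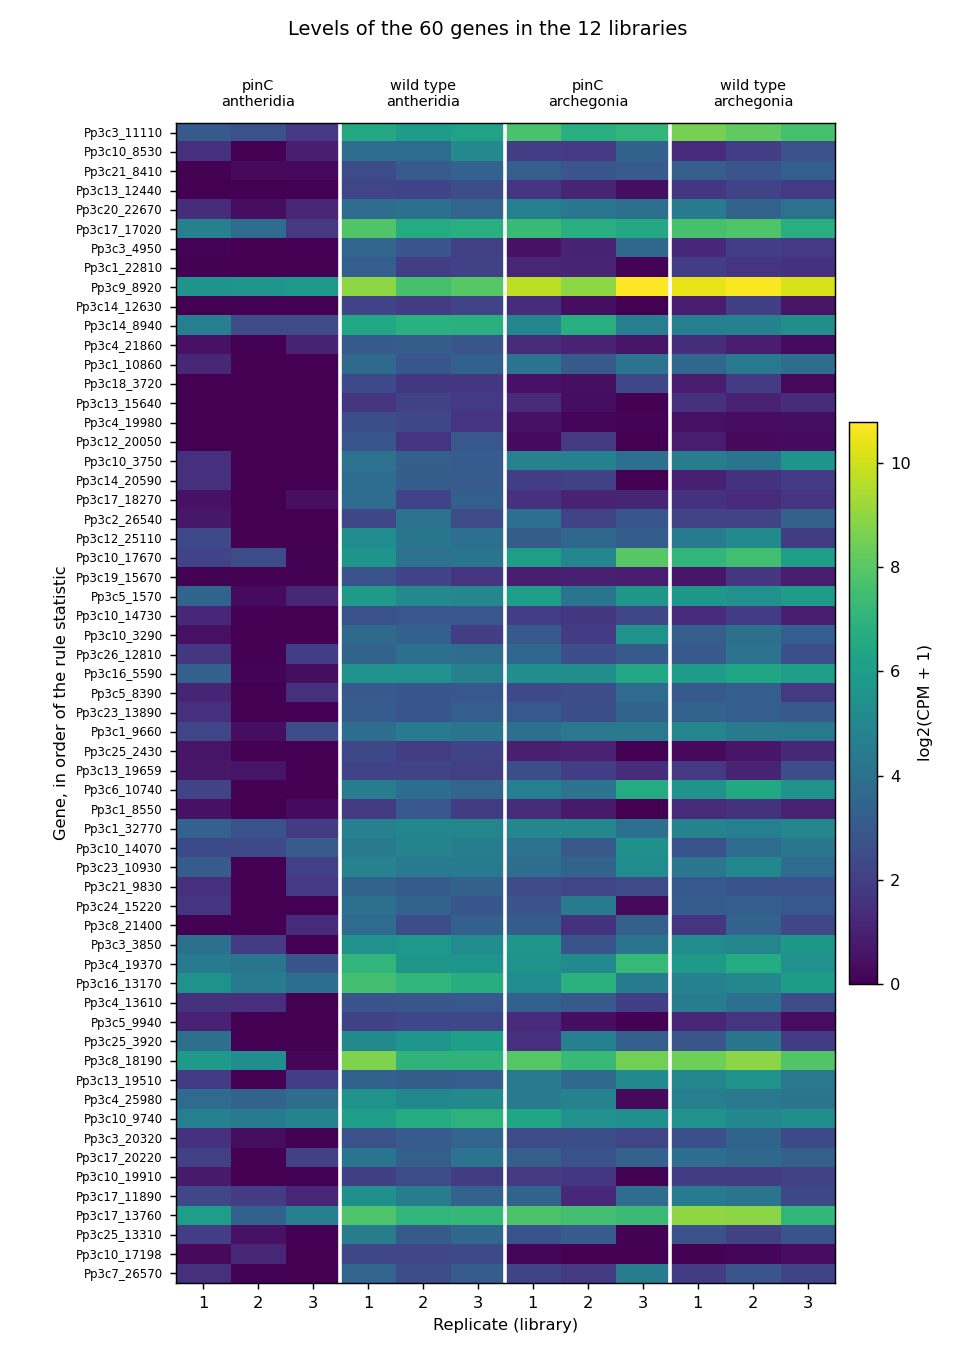
Levels of the 60 genes as log2(CPM + 1) in each library, with genes in rows by the size of the gap that chose them and libraries in columns, 3 per group. The 3 columns of mutant antheridia are mostly dark, with the library labelled mutant antheridia 1 paler than the other two in many rows, and wild type antheridia and the archegonia of either genotype are paler in most rows, with differences between the organs in many.

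The members were at the lower end of expression. Their mean level in wild type antheridia ran from 2.69 to 319 CPM with a median of 9.51 CPM, against a median of 28.7 CPM over the 15777 genes. Among the genes, 31 (51.7%) averaged under 10 CPM there, and 6 reached 100 CPM. No count at all was found for 7, 34 and 26 of the 60 genes in mutant antheridia 1, 2 and 3, and for 0 in each wild type antheridium library, where the rule required a level. Genes with no count made up 0.0824%, 6.47% and 3.35% of the 15777 genes in the same mutant libraries. Mutant archegonia 3, the remaining library with few detected genes, had no count for 9 of the 60, or 15%, against 3.58% of the 15777 genes. The part of these less complex libraries in the low values was not tested. Without them, the median fitted log2 fold change of the 60 genes between mutant and wild type antheridia was -2.40, against -3.62 with them, and the value without them has the library labelled mutant antheridia 1 as its only mutant antheridium library.

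**Figure D2:**
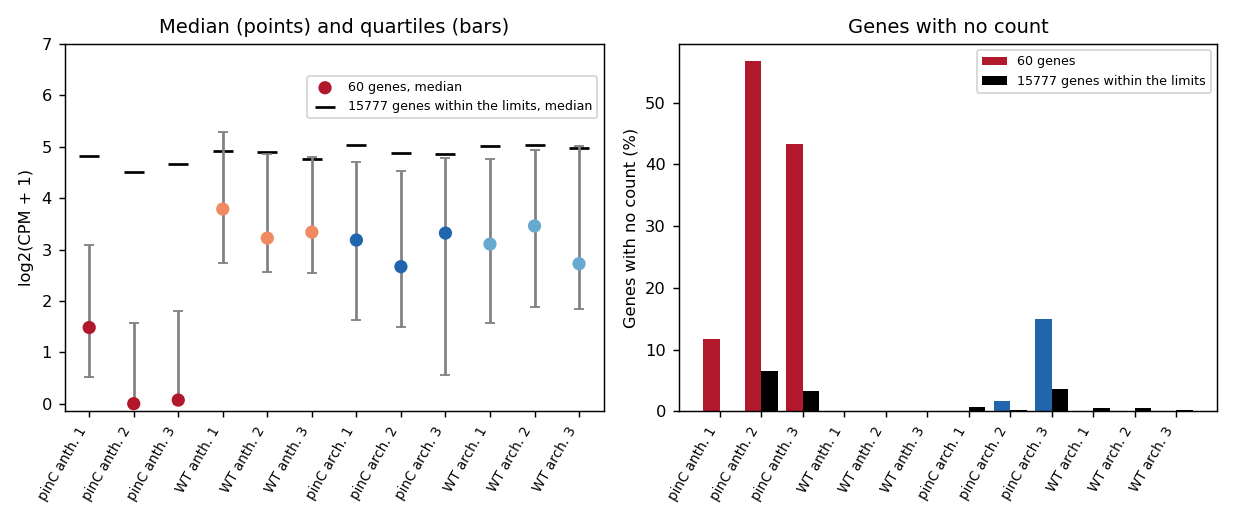
Left, median and quartiles of log2(CPM + 1) over the 60 genes in each library (coloured by group), with the median of the 15777 genes within the limits as black dashes. Right, percentage of the 60 genes (coloured bars) and of the 15777 genes (black bars) with no count, which reached 56.7% against 6.47% in mutant antheridia 2.

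In antheridia 3 of the 60 genes passed the test, edgeR's quasi-likelihood test over 22792 genes with Benjamini-Hochberg adjustment, in which 0.0132% of all genes were called lower and 0% higher. Since the genes were chosen on this comparison, nothing is read from that count. Pp3c3_11110 had the widest gap of the 60 after adding 1 CPM, while without that addition its lowest wild type level was 8.18 times its highest mutant level, against 67.03 times for Pp3c1_22810. It had 7.44, 5.54 and 2.49 CPM in mutant antheridia, against 90.2, 60.8 and 72.4 CPM in wild type antheridia. In archegonia it had 206, 111 and 135 CPM in the mutant and 379, 285 and 198 CPM in wild type, and the genotypes overlapped only in that mutant archegonia 1 was above wild type archegonia 3. Its fitted log2 fold change in antheridia was -3.73 ± 0.45 (SE; edgeR adjusted p = 0.0363), or -4.06 without the library labelled mutant antheridia 1. In archegonia it was -0.93 ± 0.40 (SE; edgeR adjusted p = 1, unadjusted p = 0.0365). The level fell to 6.92% of wild type in mutant antheridia.

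Pp3c21_8410 was at similar levels in 9 libraries and near the limit of detection in the other 3. It had 0.0437, 0.196 and 0.176 CPM in mutant antheridia, against 4.57, 7.60 and 9.63 CPM in wild type antheridia. Archegonia had 8.56, 6.21 and 7.66 CPM in the mutant and 8.74, 6.21 and 8.29 CPM in wild type, with full overlap. Its log2 fold change in antheridia was -5.45 ± 0.81 (SE; edgeR adjusted p = 0.0460). In archegonia it was -0.04 ± 0.55 (SE; edgeR adjusted p = 1).

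Pp3c4_19980 was a transcript mainly of antheridia in wild type. It had no count in any of the 3 mutant antheridium libraries, against 5.07, 3.90 and 2.17 CPM in wild type antheridia. In archegonia it stayed at 0.420, 0.156 and 0.0646 CPM in the mutant and 0.386, 0.264 and 0.320 CPM in wild type. Against a floor of 3 counts over the mutant group the level was at least 109-fold lower in mutant antheridia (edgeR adjusted p = 0.0460), or at least 59.8-fold without mutant antheridia 3, the deepest library. Because archegonia of wild type were already below 0.4 CPM, the name "lower only in antheridia" says little for this gene.

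The 3 calls depended on the fit. Leaving out any single library other than the one labelled mutant antheridia 1 left 0 of the 60 genes called, as did limma-voom and a fit of the antheridium libraries alone. Over all genes these fits also called 0, except for 1 gene without mutant antheridia 2. Without the library labelled mutant antheridia 1, 16 of the 60 were called lower, where 0.644% of all genes were, and the edgeR adjusted p was 0.00996 for Pp3c3_11110, 0.0268 for Pp3c21_8410 and 0.0211 for Pp3c4_19980. Over the 20 alternatives the adjusted p, from edgeR, DESeq2 or limma, ran from 6.10e-13 to 0.979 for Pp3c3_11110, from 3.15e-13 to 0.979 for Pp3c21_8410 and from 6.69e-06 to 0.979 for Pp3c4_19980. With all libraries, 24 of the 60 were called lower in the DESeq2 Wald test, against 0.578% of all genes with an adjusted p. At an unadjusted p under 0.05 in edgeR were 59 of the 60, and 8.39% of the 22792 genes. The fitted log2 fold changes of the 60 ran from -10.06 to -1.49 with a median of -3.62, where the median of all genes was 0.05.

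**Figure D3:**
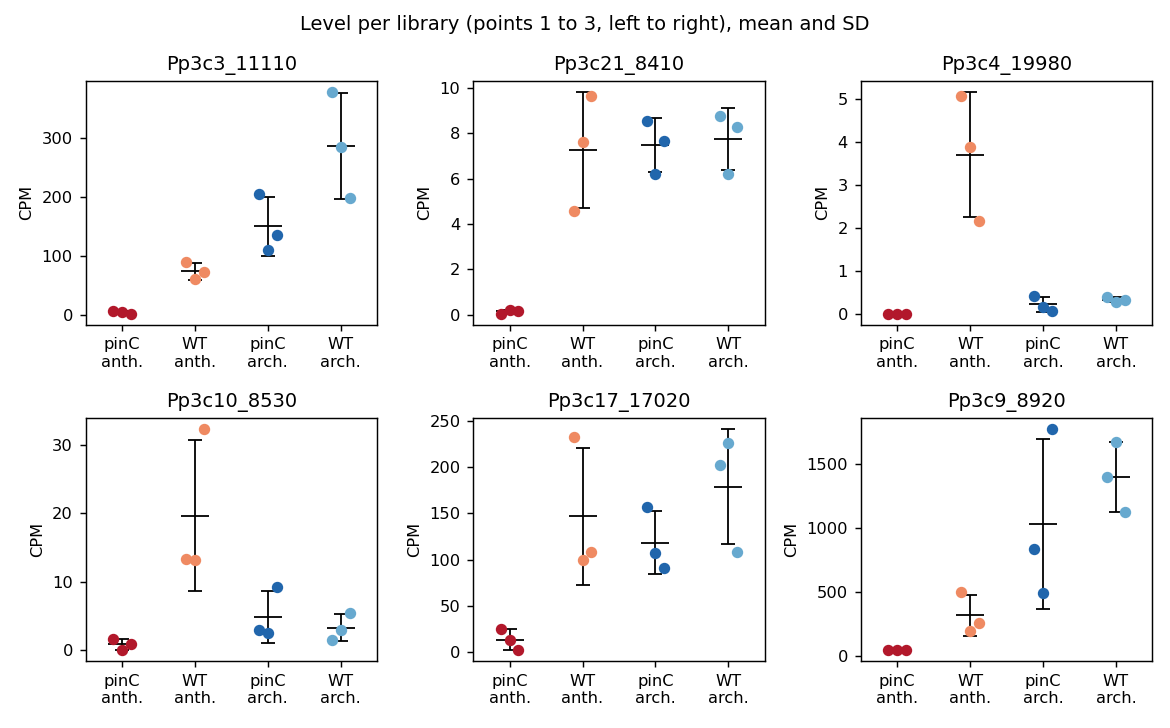
Level in CPM of 6 of the 60 genes in each library, with libraries 1 to 3 from left to right within a group, the group mean as a horizontal line and the SD as error bars (n = 3). Mutant antheridia lie below wild type antheridia in all 6, while the archegonia are above, level with or below wild type antheridia according to the gene.

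With all libraries, the next genes by the size of the gap did not pass the test. Pp3c10_8530 had 1.71, 0 and 0.879 CPM in mutant antheridia, against 13.3, 13.2 and 32.4 CPM in wild type antheridia. Archegonia had less of it than wild type antheridia, with 2.99, 2.499 and 9.31 CPM in the mutant and 1.498, 3.04 and 5.41 CPM in wild type. Its log2 fold change in antheridia was -4.43 ± 1.01 (SE; edgeR adjusted p = 0.408). Pp3c20_22670 had 1.57, 0.314 and 1.21 CPM in mutant antheridia, against 13.1, 14.8 and 10.3 CPM in wild type antheridia. In archegonia the levels of Pp3c20_22670 were 24.2, 18.1 and 14.8 CPM in the mutant and 19.95, 9.81 and 15.3 CPM in wild type. In wild type, Pp3c10_8530 was higher in every antheridium library than in every archegonium library, while the organs overlapped for Pp3c20_22670. Without the library labelled mutant antheridia 1, the edgeR adjusted p in antheridia was 0.0815 for Pp3c10_8530. For Pp3c20_22670 it was 0.0428 without that library and 0.279 with all libraries.

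Pp3c17_17020 ranked among the 10 widest gaps and among the 5 highest levels in wild type antheridia. It had 25.3, 13.3 and 2.49 CPM in mutant antheridia, against 232, 99.2 and 109 CPM in wild type antheridia (fitted log2 fold change -3.31 ± 0.65, SE, with an edgeR adjusted p of 0.316). Without the library labelled mutant antheridia 1 that edgeR adjusted p was 0.0368. Archegonia overlapped, at 157, 107 and 91.4 CPM in the mutant and 202, 226 and 108 CPM in wild type. Pp3c9_8920, with the highest mean CPM of the 60 in wild type antheridia, had 47.2, 49.0 and 53.1 CPM in mutant antheridia, against 501, 199 and 256 CPM in wild type antheridia. Its mutant antheridium libraries were close to each other, while wild type antheridia 1 stood above its 2 replicates. Mutant archegonia had 838, 491 and 1770 CPM of Pp3c9_8920 and wild type archegonia 1393, 1665 and 1121 CPM.

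Among the other abundant members the 3 mutant antheridium libraries were less alike. Pp3c8_18190 had 56.1, 38.6 and 0.126 CPM in mutant antheridia, against 416, 128 and 127 CPM in wild type antheridia. Mutant antheridia 3 thus held almost none of Pp3c8_18190, while the library labelled mutant antheridia 1 held the most of the 3. Pp3c17_13760 had 62.7, 9.23 and 24.0 CPM in mutant antheridia, against 224, 138 and 145 CPM in wild type antheridia. For Pp3c16_13170 the values were 45.2, 20.1 and 13.7 CPM in mutant antheridia, against 186, 135 and 105 CPM in wild type antheridia. Their edgeR adjusted p in antheridia were 0.571, 0.467 and 0.506, in the order in which the genes are named. Without the library labelled mutant antheridia 1 they were 0.246, 0.0464 and 0.0999 in the same order.

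In 6 of the 60 genes no mutant antheridium library had a count. Besides Pp3c4_19980 these were Pp3c13_12440, Pp3c14_12630, Pp3c18_3720, Pp3c13_15640 and Pp3c12_20050, the last 3 outside the naming rule and named because the count is small. Their means in wild type antheridia ran from 2.69 CPM for Pp3c13_15640 to 5.06 CPM for Pp3c12_20050. Against 3 counts over the mutant group, the level in mutant antheridia was at least 79.0-fold lower for Pp3c13_15640 and at least 149-fold lower for Pp3c12_20050. These bounds came to 43.3-fold and 81.5-fold without mutant antheridia 3, and they cover counting error only. Pp3c1_22810 had a single count over the 3 mutant antheridium libraries and a mean of 4.87 ± 3.06 CPM over the 3 wild type antheridium libraries (SD). The ratio of wild type to mutant antheridia for Pp3c1_22810 was 429, with an exact Poisson 95% interval of 77.1 to 16957. That count was in the library labelled mutant antheridia 1, without which, taking 3 counts over the other two as the floor, mutant antheridia were at least 106-fold lower. Pp3c3_4950 had 2 counts in mutant antheridia, both in the library labelled mutant antheridia 1, and a mean of 6.63 ± 3.73 CPM in wild type antheridia, a ratio of 292 with an interval of 80.9 to 2412. Without that library the level of Pp3c3_4950 in mutant antheridia was at least 144-fold lower against the same floor.

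The 60 genes differed in how the low level was shared among the mutant antheridium libraries. Counts in all 3 libraries were found for 20 of them, while 19 lacked counts in 1, 15 lacked them in 2, and 6 in all 3. Of the 15 genes seen in a single mutant antheridium library, 14 were seen in the library labelled mutant antheridia 1. That library held the highest mutant antheridium level for 38 of the 60 genes, mutant antheridia 2 for 3 and mutant antheridia 3 for 13. Over the 15777 genes the same library was highest for 42.0%. As a percentage of the wild type mean, the median over the 60 genes was 18.2% in the library labelled mutant antheridia 1, 0% in mutant antheridia 2 and 0.274% in mutant antheridia 3. On the wild type side, wild type antheridia 1 held the highest level of 34 of the 60 genes, or 56.7%, and of 43.0% of the 15777.

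The 3 genes with the largest excess of the library labelled mutant antheridia 1 over its replicates were Pp3c25_3920, Pp3c16_5590 and Pp3c3_3850. Pp3c25_3920 had 15.01, 0 and 0 CPM in mutant antheridia, against 35.0, 48.0 and 67.3 CPM in wild type antheridia. Pp3c16_5590 had 9.01, 0.0785 and 0.326 CPM in mutant antheridia, against 44.3, 43.0 and 25.8 CPM in wild type antheridia. For Pp3c3_3850 it was 15.01, 2.71 and 0.0251 CPM in mutant antheridia, against 43.1, 52.7 and 36.4 CPM in wild type antheridia. Without that library the log2 fold changes were -13.37 for Pp3c25_3920, -7.21 for Pp3c16_5590 and -4.93 for Pp3c3_3850. The edgeR adjusted p were then 0.0362, 0.00247 and 0.0823, against 0.576, 0.502 and 0.566 with all libraries. The log2 fold change of Pp3c25_3920 is a fitted one against 2 libraries with no count and is no bound. The median log2 fold change of the 60 genes was -5.09 when that library was left out.

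The limit of 60 cut through a continuum. The last genes inside were Pp3c25_13310, Pp3c10_17198 and Pp3c7_26570, with log2 ratios of the highest mutant to the lowest wild type antheridium library, each plus 1 CPM, of -1.12, -1.11 and -1.11. The first outside were Pp3c3_10900, Pp3c16_1379 and Pp3c8_25000, at -1.10, -1.10 and -1.10. Pp3c8_25000 illustrates what this measure leaves out, with 173, 230 and 128 CPM in mutant antheridia, against 777, 493 and 667 CPM in wild type antheridia. Which genes filled the 60 places depended on single libraries. Without the library labelled mutant antheridia 1, 8 of the 60 remained among the top 60, without mutant antheridia 3 it was 17, and without mutant antheridia 2 it was 32. Leaving out wild type antheridia 1, 2 or 3 kept 32, 27 or 33. In all of these cases the 60 still met the level and fold limits, and places were lost to genes with a wider gap among the remaining libraries.

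In archegonia the mutant and wild type were compared to see how far the 60 genes differed outside the male organ. The rule had kept the means within 2-fold, after adding 1 CPM, so similarity is built in. In edgeR 0 of the 60 genes were called, as were 0% of all genes. At an unadjusted p under 0.05 was 1 of the 60, Pp3c3_11110, and 257 of the 22792 genes. The DESeq2 Wald test and limma-voom also called 0 of the 60, but over all genes they called only 9 and 4. A gene that was not called is not thereby shown to be alike in the genotypes. The median log2 fold change was -0.25, with 38 genes below 0 and 22 above, and the median of all genes was -0.03. The fitted values ran from -2.21 to 1.37, with 8 genes below -1 and 3 above 1. For 5 of the 60 genes every mutant archegonium library was lower than every wild type one, a share of 8.33%, while such a gap was seen in 5.18% of the 15777 genes. The opposite gap was seen in 0 of the 60 and in 2.31% of the 15777. These 5, named because the count is small, were Pp3c13_12440, Pp3c1_22810, Pp3c1_9660, Pp3c21_9830 and Pp3c10_19910. Pp3c13_12440 averaged 1.22 ± 0.916 CPM in mutant and 2.83 ± 0.655 CPM in wild type archegonia (SD, n = 3). Pp3c1_22810 averaged 0.832 ± 0.666 CPM in mutant and 2.30 ± 0.524 CPM in wild type archegonia. Adding 1 CPM keeps such low genes within the 2-fold limit, and without that addition 9 of the 60 had a mean in mutant archegonia below 50% of wild type. A difference confined to antheridia is therefore not shown for every gene of the 60.

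Whether the genotype difference was unlike in the 2 organs was asked with the interaction, the log2 fold change in antheridia minus that in archegonia. It was below 0 for all 60 genes by the way they were chosen, with a median of -3.30 and a range of -11.43 to -0.76. In edgeR 0 of the 60 were called and 0% of all genes, and 42 of the 60 and 961 of the 22792 genes had an unadjusted p under 0.05. The DESeq2 Wald test called 12 of the 60, where 0.16% of all genes were called lower, and limma-voom called 0. Without the library labelled mutant antheridia 1, edgeR called 1 of the 60 and 0.0644% of all genes lower. The value nearest 0 belonged to Pp3c10_17198. It had 0.219, 1.26 and 0 CPM in mutant antheridia, against 3.88, 3.94 and 4.34 CPM in wild type antheridia, but at most 0.105 CPM in mutant archegonia and 0.280 CPM in wild type archegonia. With so few counts in archegonia, a difference between the genotypes was not detectable there at this depth.

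**Figure D4:**
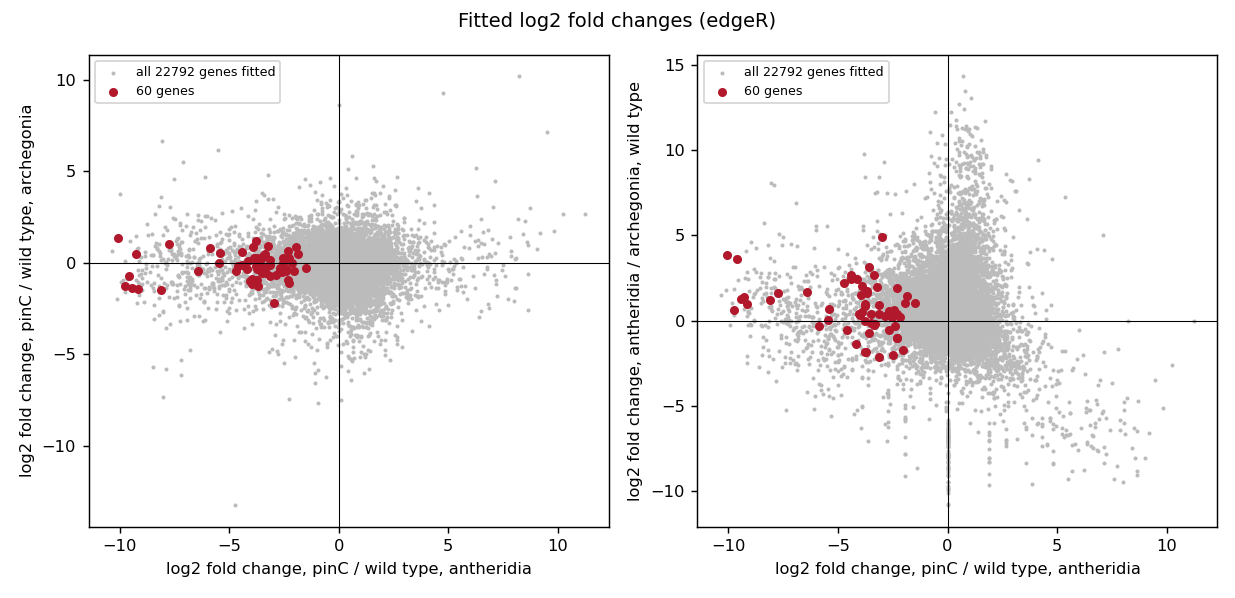
Fitted log2 fold change of mutant over wild type antheridia (horizontal axis) against that of mutant over wild type archegonia (left) and that of antheridia over archegonia in wild type (right), for all 22792 genes fitted (grey) and the 60 genes (red). The 60 genes lie left of 0 on the horizontal axis by choice. In archegonia they run from -2.21 to 1.37 with a median of -0.25, and in the organ comparison they lie on either side of 0.

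In wild type the 60 genes were not of a single organ pattern. Their mean in wild type antheridia was above that in wild type archegonia for 42 genes, or 70.0%, where it was above for 42.9% of the 15777 genes within the limits. On log2(CPM + 1), 17 genes were more than 1 higher in wild type antheridia, 8 were more than 1 higher in wild type archegonia, and 35 lay between. In edgeR 2 genes were called higher in wild type antheridia, Pp3c4_19980 and Pp3c10_17198, and 1 lower, Pp3c3_11110, where 2.56% of all genes were called higher and 0.39% lower. These calls came to 1 without wild type antheridia 2 or 3 or wild type archegonia 3, and to 0 without wild type archegonia 1 or 2. Over all genes these fits called 397, 289, 717, 211 and 208, in the order given, against 672 with all libraries. In every wild type antheridium library 22 of the 60 genes were higher than in every wild type archegonium library, against 12.7% of the 15777 genes, and 7 were lower in all, against 18.8%. The rule limited this difference to 8-fold, and the genes were ranked on the same wild type antheridium libraries. High values there favour both a place among the 60 and a level above wild type archegonia, so these shares are a description.

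The organ patterns had different levels in the mutant. The 17 genes higher in wild type antheridia had a median of their group means of 0.489 CPM in mutant and 7.17 CPM in wild type antheridia, and 2.08 CPM in mutant and 1.86 CPM in wild type archegonia. After adding 1 CPM the most antheridium-biased were Pp3c25_3920, Pp3c10_8530 and Pp3c10_17198. As plain ratios of the wild type means the order was another, with 28.4 for Pp3c10_17198, 12.5 for Pp3c12_20050 and 11.5 for Pp3c4_19980, against 5.92 for Pp3c10_8530 and 5.78 for Pp3c25_3920. The 35 genes in between had medians of 0.988 CPM in mutant and 9.28 CPM in wild type antheridia, and 8.24 CPM in mutant and 9.48 CPM in wild type archegonia. In the 8 archegonium-biased genes the medians were 2.31 CPM in mutant and 21.3 CPM in wild type antheridia, and 80.9 CPM in mutant and 94.0 CPM in wild type archegonia. Pp3c10_17670, Pp3c9_8920 and Pp3c3_11110 were the most archegonium-biased after adding 1 CPM. Pp3c10_17670 had 3.54, 4.71 and 0.0502 CPM in mutant antheridia, against 47.5, 15.7 and 17.5 CPM in wild type antheridia, without overlap. Archegonia had 64.7, 29.6 and 253 CPM of it in the mutant, against 135, 180.5 and 65.9 CPM in wild type, with overlap. As a percentage of wild type antheridia, the level in mutant antheridia had a median of 6.82% in the antheridium-biased genes, 8.32% in those between and 13.0% in the archegonium-biased genes. Without the library labelled mutant antheridia 1 these medians were 0.676%, 3.10% and 9.34%, and the medians of the mutant antheridium means were 0.0251, 0.275 and 1.94 CPM, in the same order of classes. Because the ranking adds 1 CPM, a gene with a higher level in wild type antheridia may keep a larger percentage and still be chosen. The wild type antheridium medians of 7.17, 9.28 and 21.3 CPM rise in the same order of classes. The choice thus favours this order, and nothing about the organ patterns is read from it.

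Between the organs of the mutant, 59 of the 60 genes had a fitted log2 fold change of antheridia over archegonia below 0, the exception being Pp3c10_17198. The limits of the choice favour this direction. In edgeR 19 of the 60 were called lower in mutant antheridia than in mutant archegonia and 0 higher, where 1.33% of all genes were called lower, 6.74% higher and 8.07% in either direction. The count was 11 without mutant archegonia 1, where 125 of 23470 genes were called lower. It was 12 without mutant archegonia 3, where 166 of 23467 genes were called lower. Without the library labelled mutant antheridia 1 it was 25, where 3.69% of all genes were called lower. For Pp3c21_8410, which was level between the organs in wild type, the log2 fold change of mutant antheridia over mutant archegonia was -5.37 (edgeR adjusted p = 0.000688), or -5.12 without the library labelled mutant antheridia 1. For Pp3c20_22670 it was -3.95 (edgeR adjusted p = 0.00207), or -4.38 without that library. In every mutant antheridium library 42 of the 60 were lower than in every mutant archegonium library, against 12.5% of the 15777 genes, and 0 were higher in all, against 6.44%. Without the library labelled mutant antheridia 1, 46 of the 60 were lower in this way, against 22.9% of the 15777 genes.

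In the authors' deposited table for mutant over wild type antheridia, 9 of the 60 genes had an adjusted p under 0.05, all lower, where 0.0476% of the genes with an adjusted p were called lower and 0.0715% in either direction. That table called 10 genes lower in all, so 9 of its 10 are among the 60. Besides Pp3c3_11110 and Pp3c21_8410 they were Pp3c9_8920, Pp3c20_22670, Pp3c3_4950, Pp3c1_22810, Pp3c14_8940, Pp3c19_15670 and Pp3c16_13170. Pp3c14_8940 and Pp3c19_15670 were named after their values were seen. Pp3c14_8940 had 23.2, 4.67 and 4.77 CPM in mutant antheridia, against 87.6, 117 and 113 CPM in wild type antheridia. Over the 60 genes the log2 fold changes in the authors' deposited table had a median of -1.42, smaller in size than in the fit here, and all 60 were below 0. Pp3c13_12440, with no count in mutant antheridia, had -2.41 there and -9.75 in the fit here. How far the authors' settings draw log2 values toward 0 was not tested, so the difference in size is not read as a smaller effect. Pp3c4_19980, called in edgeR here, had an adjusted p of 0.174 in the authors' deposited table. For antheridia over archegonia in wild type, the authors' deposited values called 15 of the 60 higher and 5 lower. Of all genes with an adjusted p there, 12.9% were called in either direction and 4.17% lower. For the same organs in the mutant, 14 of the 60 were called lower and 0 higher, where 1.30% of genes were called lower and 7.56% in either direction. Both analyses use the same libraries and are not independent of each other or of the choice of genes.

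Levels of transcripts typical of each organ were read beside these results, from lists of 30 genes that exclude the 60. Archegonium genes chosen in the mutant libraries had medians of 14.996%, 6.82% and 6.82% of their wild type archegonium mean in wild type antheridia 1, 2 and 3, with 2 of the 30 at 0 in each. Archegonium genes chosen in wild type libraries had medians of 4.44%, 0.264% and 0.366% of their mutant archegonium mean in mutant antheridia 1, 2 and 3, with 5, 5 and 7 of the 30 at 0. These lists share 13 genes and were each chosen for low levels in antheridia of their own genotype. Summed over the first list the level was 231, 116 and 124 CPM in mutant antheridia, against 4893, 714 and 2199 CPM in wild type antheridia. Over the second list the sums were 618, 685 and 1669 CPM in mutant antheridia, against 1544, 514 and 816 CPM in wild type antheridia, which overlap. Medians over the first list were 4.24, 0.196 and 1.37 CPM in mutant antheridia, against 17.8, 7.31 and 7.01 CPM in wild type antheridia. Over the second list they were 2.43, 0.157 and 0.490 CPM in mutant antheridia, against 5.05, 3.41 and 5.10 CPM in wild type antheridia. Unlike the sums of the second list, the medians did not overlap in either list. The highest gene of the first list reached 96.0% in wild type antheridia 1. The part of archegonial transcripts in the low values of the 8 archegonium-biased genes was not tested.

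Antheridium genes varied between the mutant antheridium libraries in the other direction from the 60. A list of 30 antheridium genes chosen in wild type had medians of 138, 1038 and 402 CPM in mutant antheridia 1, 2 and 3 and of 256, 267 and 463 CPM in wild type antheridia, and no gene of the list was at 0 in any of these libraries. Its sums were 5233, 39554 and 15556 CPM in mutant antheridia, against 10953, 8353 and 19410 CPM in wild type antheridia. The library labelled mutant antheridia 1, highest of the 3 in most of the 60 genes, was thus the lowest in this list, and mutant antheridia 2 the highest. Antheridium genes chosen in the mutant had medians of 205, 1288 and 480 CPM in mutant antheridia and of 333, 288 and 608 CPM in wild type antheridia. The part of these differences in makeup in the values of the 60 genes was not tested.

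The 60 genes were spread over the genome as far as their identifiers tell, in which the number after Pp3c is that of the chromosome and the last number rises along it. Members lay on 23 of the 27 chromosomes. Chromosome 10 held 9 of them, or 15%, and carried 3.90% of the 15777 genes, and no other chromosome had more than 5; this was noticed after the values were seen and has no test. The member nearest to Pp3c10_24880 was Pp3c10_19910, with 222 genes of the table between them. No pair of the 60 lay within 100 in identifier number, the closest being Pp3c13_19510 and Pp3c13_19659, with 6 genes between. The genes next to members, 1 on each side and 120 in all, exclude the 60, and any that met the limits were ranked and passed over. Their median log2 fold change between mutant and wild type antheridia was -0.04, against 0.05 for all genes, and 62 of them were below 0. In edgeR 0 of the 120 were called, where 0.0132% of all genes were. The 3 genes called were all members, so this 0 was fixed in advance and nothing is read from it. Of the 120, 12 (10%) were lower without overlap of libraries, where 7.63% of the 22792 genes were. The lower and upper quartiles of the log2 fold changes were -0.77 and 0.63 in the neighbours and -0.51 and 0.57 in all genes.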

How the data were processed

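RNA from 12 pools of organs was made into cDNA by Smart-seq2, per the labels' protocols, a full-length method that in its usual form keeps no strand and has no molecular identifiers. Raw counts of reads per gene were deposited by the authors. So were the results of their DESeq2 comparisons, as log2 fold changes. Each deposited log2 value has a p-value and an adjusted p-value beside it. Per the submitters' processing notes, Trim Galore 0.6.6, cutadapt 2.10, HISAT2 2.1.0 and DESeq2 2.11.40.6 were used. For the genome build and counting settings, no statement is given in the sources used here. Reads of overlapping genes or near-identical copies cannot be told apart.

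Groups came from the sample titles. CPM was the count over the column sum. Counts were fitted with edgeR 4.0.16 in R 4.3.3 (TMM, filterByExpr, robust non-legacy quasi-likelihood fit of 4 group means over 12 libraries, 8 residual degrees of freedom), which kept 22792 genes including the 60. Calls used a Benjamini-Hochberg adjusted p under 0.05. The SE is the absolute log2 fold change over the square root of F. DESeq2 1.42.0 and limma 3.58.1 were alternatives. The fit was tested on simulated data.

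The 60 genes, the lists and the tests were chosen with earlier results of these data known. Named genes were the 10 widest gaps, the 5 highest in wild type antheridia, those called, 3 on each side of the limit, close neighbours, the 3 most biased to each organ and the 3 highest in mutant antheridia 1 relative to its replicates. Of 27567 RefSeq genes (ASM5946719v1), 0 matched the identifiers, so lists by gene product were not tested. A floor of 3 counts was between 0.0753 and 0.158 CPM in a library. Intervals and floors cover counting error only. Replicates differed beyond sampling noise, the lowest chi-square over its degrees of freedom being 88.35. Adjusting the authors' p-values by Benjamini-Hochberg gave their adjusted values, and the signs of their log2 fold changes were checked against the counts.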

Additional observations from a re-analysis of the deposited data

How the results depend on the processing

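All 60 genes kept a negative log2 fold change between mutant and wild type antheridia in the 20 alternatives tried, with a median from -5.09 to -2.40. Since the genes were chosen without overlap of these same libraries, the negative sign follows from the choice and is not a result. How many were called did not hold. The 3 genes called became 1 without the low-count filter, 0 with limma-voom, 0 in the fit of the groups compared, and 24 with the DESeq2 Wald test. It was 0 when mutant antheridia 2 and 3 and mutant archegonia 3, the least complex libraries, were dropped; this was chosen after seeing the data, and the remaining mutant antheridium library is assumed to vary like the other groups. Counts ranged from 0 to 16 with single libraries left out. Over all genes, 3 of 22792 called became 2 of 27889 without the low-count filter. These calls came to 0 with limma-voom, 0 of 21288 in the fit of the groups compared and 189 with DESeq2. They ranged from 0 to 159 with single libraries left out. With the replicate number as a block the count among the 60 was 1 in antheridia, 2 for the organs in wild type and 14 for the organs in the mutant, and 0 for archegonia and the interaction. Over all 22792 genes the block gave 1, 496 and 1209 calls in the same order, and 0 for archegonia and the interaction. Same-numbered libraries of mutant and wild type antheridia had correlations of -0.05, -0.13 and 0.03 in their deviations from the group means. For mutant and wild type archegonia the values were 0.18, -0.421 and -0.225. Deviations from a mean of 3 libraries depend on each other, so these values cannot show whether same-numbered libraries share an occasion. For the interaction, 0 called became 12 with DESeq2, and ranged from 0 to 1 with single libraries left out. For the organs in wild type, 3 called became 5 with DESeq2, 16 with limma-voom and 15 in the fit of the groups compared. The count ranged from 0 to 4 with single libraries left out. Calls over all genes moved too, from 672 of 22792 to 1278 with DESeq2 and 3050 with limma-voom. They came to 1654 of 21669 in the fit of the groups compared, and ranged from 208 to 925 with single libraries left out. For the organs in the mutant, 19 became 27 with DESeq2 and 5 with limma-voom. In the fit of the groups compared it was 4 of the 51 genes tested, and it ranged from 11 to 25 with single libraries left out. Over all genes, 1840 of 22792 called became 2658 with DESeq2 and 1421 with limma-voom. These calls came to 575 of 21116 in the fit of the groups compared, and ranged from 843 to 2223 with single libraries left out. Of the 60 genes, 31 stayed among the 60 with 5 CPM added in place of 1, 28 when means replaced the extremes, 39 with at least 5 CPM required, and 7 without the 3 libraries, and between 8 and 60 with single libraries left out. Without TMM, scaled by the column sum only, the median log2 fold change of all genes between mutant and wild type antheridia moved from 0.05 to -0.10, and that of the 60 genes to -3.75. With 60 genes in place of 30, the 3 library means of the organ lists became 14.9% for archegonium genes in wild type antheridia, 7.84% in mutant antheridia and 0.286% for antheridium genes in wild type archegonia. With 30 genes, libraries 1, 2 and 3 had medians of 14.996%, 6.82% and 6.82% in the first case. In the second these were 4.44%, 0.264% and 0.366%, and in the third 0.0889%, 0.0753% and 0.184%.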
